A study of Mus musculus with 6 samples.

Results

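The cathepsins of adult stria vascularis were followed through every probe set that the array annotation assigns to Ctsa, Ctsb, Ctsc, Ctsd, Ctsf, Ctsh, Ctsk, Ctsl, Ctss or Ctsz. There were 22 such probe sets among the 45037 tested and they stood for 10 of 18193 genes. Stria vascularis, the vascularised epithelium that delivers K+ to the endolymph of the cochlea, was taken from Slc26a4+/+ mice (P148 ± 3) and from Slc26a4-/- mice (P153 ± 1), which lack a functional pendrin gene in all cells. The series title gives the strain as 129S6. RNA of 2 animals was pooled for each array, amplified in 2 rounds and hybridised to Affymetrix mouse genome arrays, 3 per genotype, and the mice had not been perfused to remove blood. The comparison asks which cathepsins are higher or lower in stria vascularis when pendrin, an anion exchanger, is missing.

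Cathepsins are peptidases that work mostly in lysosomes. They are made as inactive precursors, reach the lysosome through mannose 6-phosphate receptors or related sorting receptors, and become active there when the propeptide is cut off at acid pH. Ctsb, Ctsc, Ctsf, Ctsh, Ctsk, Ctsl, Ctss and Ctsz are cysteine peptidases of the papain family, Ctsd is an aspartic peptidase and Ctsa is a serine carboxypeptidase. Cystatins block the cysteine cathepsins that escape the lysosome. Macrophages are rich in cathepsins, and pigment cells and epithelia hold many of them too.

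In Slc26a4-/- mice, 6 of the 22 cathepsin probe sets rose and 0 fell. They belonged to Ctss, Ctsc, Ctsh, Ctsa and Ctsb, and the largest increases among these were those of Ctss and Ctsc, to about 3.25 and 3.13 times the Slc26a4+/+ level. Among all probe sets 1.19% rose at the same threshold, an adjusted p under 0.05 from limma on log2 signals. At an unadjusted p under 0.05, 13 cathepsin probe sets were higher and 0 were lower, against 6.15% and 5.77% of all probe sets. With each gene represented by its brightest probe set, 4 of 10 cathepsin genes rose, Ctsa, Ctsc, Ctsh and Ctss, and 0 fell, where 1.88% of all genes rose. The median log2 fold change was 0.87 over the 10 genes and -0.03 over all genes. On 16 of the 22 probe sets each Slc26a4-/- array was brighter than each Slc26a4+/+ array, which held for 8.46% of all probe sets. The ratio of mean signals of the brightest probe set exceeded 1.3 for 7 of the 10 genes, against 16.3% of all genes. Averaged over all probe sets of a gene, as the study did, the ratio exceeded 1.3 for 8 of the 10 genes, against 16% of all genes. The study had listed Ctsb, Ctsk and Ctss as higher on these same arrays, so the counts are no independent result. Of these, Ctsk and the brightest probe set of Ctsb did not pass the adjusted threshold here. All these calls come from 1 comparison of 6 arrays, and the labels do not say how the pools were matched. In whole tissue a higher signal cannot be told apart between more cells of a type and more RNA in each cell.

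The signal is the intensity that the authors' software (GCOS) gave each probe set, scaled per array by the authors, and its level cannot be compared between probe sets. Background was set from olfactory receptor genes, whose 95th percentile on an array lay between 187 and 319. Of the 22 cathepsin probe sets 17 lay above it on all 3 arrays of a genotype, and 4 lay below it on all 6 arrays. The fold changes of dim probe sets had wide confidence intervals, as the plot of differences shows. Array quality differed: the 3′/5′ ratio of Gapdh, which rises as RNA is degraded or amplified incompletely, was 2.25, 7.19 and 10.5 on Slc26a4+/+ replicates 1, 2 and 3, and 3.34 to 3.80 on the Slc26a4-/- arrays. The pools were also unlike in sex-linked transcripts. The Y-linked gene Eif2s3y had signals of 639.9 to 1541 in Slc26a4+/+ and 3.10 to 3.60 in Slc26a4-/-, and Xist, the transcript of the inactive X chromosome, had 771 to 3358 and 5529.6 to 5863, respectively. With the Xist signal as a covariate, 0 cathepsin probe sets passed (27 of all probe sets did), but Xist does not overlap between the genotypes, so that sex and genotype cannot be told apart. The Slc26a4 signal itself was 793 to 1354 in Slc26a4+/+ and 520.2 to 717 in Slc26a4-/- (log2 fold change -0.85, SE 0.23, adjusted p = 0.119 from limma). The sources used here do not place its probe set relative to the deleted part, so it is no check of the labels.

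**Figure D1:**
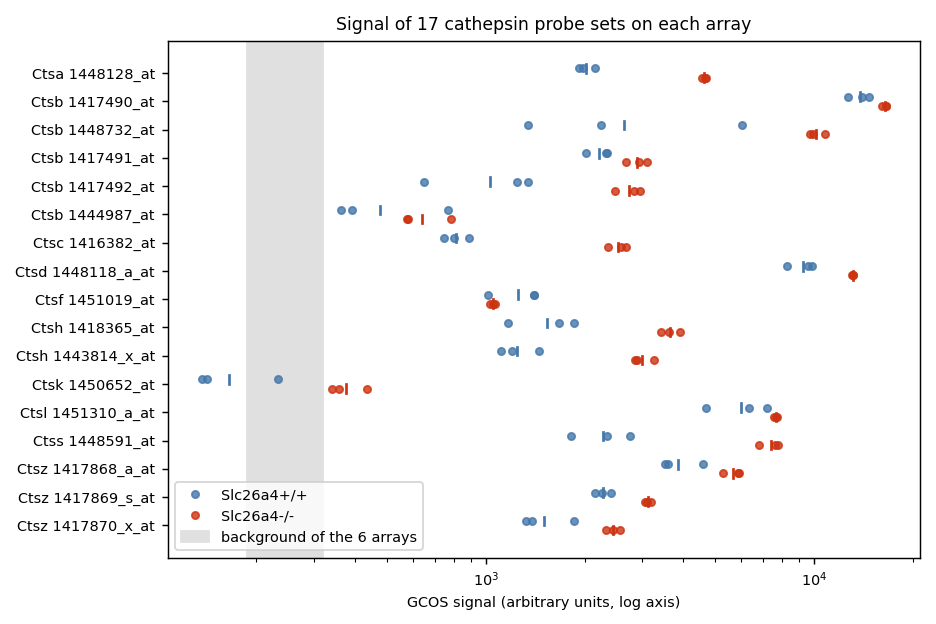
GCOS signal (arbitrary units, log axis) of the 17 cathepsin probe sets above background, with 1 point per array, a vertical tick at the geometric mean of each genotype and the range of the background in grey. Slc26a4-/- arrays lie to the right of Slc26a4+/+ arrays for Ctsa, Ctsc, Ctsh and Ctss, whereas the genotypes overlap for Ctsf 1451019_at and Ctsb 1444987_at.

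Ctss encodes cathepsin S, an endopeptidase of antigen-presenting cells that stays active at neutral pH and trims the invariant chain from MHC class II molecules. Its single probe set, 1448591_at, gave signals of 2337.5, 2759 and 1816 with Slc26a4+/+ tissue and of 7752, 6807 and 7623 with Slc26a4-/- tissue. Each Slc26a4-/- array was brighter than any Slc26a4+/+ array by more than the whole span of the latter. On the log2 scale the difference was 1.70 (SE 0.17, 95% confidence interval 1.33 to 2.08, adjusted p = 0.00106 from limma). It stayed between 1.54 and 1.84 when any 1 array was left out.

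Ctsc encodes dipeptidyl peptidase I, which removes dipeptides from the N-terminus and activates the serine peptidases of neutrophil, mast cell and lymphocyte granules. Probe set 1416382_at gave signals of 888, 798 and 746 with Slc26a4+/+ tissue and 2359.8, 2577.5 and 2677 with Slc26a4-/- tissue. The 3 arrays of a genotype lay close together and the genotypes lay far apart, and this probe set had the smallest p-value of the family. On the log2 scale it rose by 1.65 (SE 0.14, 95% confidence interval 1.34 to 1.96, adjusted p = 0.000387 from limma). Both other probe sets of Ctsc, 1446834_at and 1437939_s_at, were below background on all 6 arrays, with signals of 56.8 to 106 and 27.0 to 80.2, and did not pass.

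Ctsh encodes cathepsin H, mainly an aminopeptidase. Its 2 probe sets gave the same size of difference, although the suffix of 1443814_x_at marks probes able to match several transcripts. Probe set 1418365_at gave signals of 1677, 1854 and 1168 with Slc26a4+/+ tissue and 3430.5, 3912 and 3626 with Slc26a4-/- tissue (log2 fold change 1.25, SE 0.18, adjusted p = 0.00837 from limma). Probe set 1443814_x_at gave 1109, 1455 and 1205 with Slc26a4+/+ tissue and 2841.5, 3259 and 2894 with Slc26a4-/- tissue (log2 fold change 1.26, SE 0.15, adjusted p = 0.00285 from limma). The genotypes did not overlap on either. For 1418365_at the adjusted p was 0.0642 with the arrays centred on their medians, 0.0573 without Slc26a4-/- replicate 2 and 0.0571 without Slc26a4-/- replicate 3.

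Ctsa encodes the protective protein, a carboxypeptidase that also holds β-galactosidase and neuraminidase together in a lysosomal complex. Probe set 1448128_at gave signals of 2151, 1924 and 1976 with Slc26a4+/+ tissue and 4573, 4643 and 4682 with Slc26a4-/- tissue. These were among the tightest replicates of the family, and the increase was 1.20 on the log2 scale (SE 0.12, 95% confidence interval 0.92 to 1.48, adjusted p = 0.00137 from limma). The partners in that complex did not pass. Neu1, the neuraminidase, had a log2 fold change of 0.08 (95% confidence interval -0.33 to 0.49), and Glb1, the β-galactosidase, had 0.05 (-0.75 to 0.85) at signals near background. The other probe set of Ctsa, 1458466_at, was at 134.5 to 226.5 in Slc26a4+/+ and at 154 to 221 in Slc26a4-/-, and exceeded background on 1 array.

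Of all calls of the family, only that of Ctsc 1416382_at remained when the spread was moderated without a trend on the signal, and the adjusted p was then 0.0919 for Ctsa 1448128_at, 0.0784 for Ctss and 0.114 for Ctsh 1443814_x_at.

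**Figure D2:**
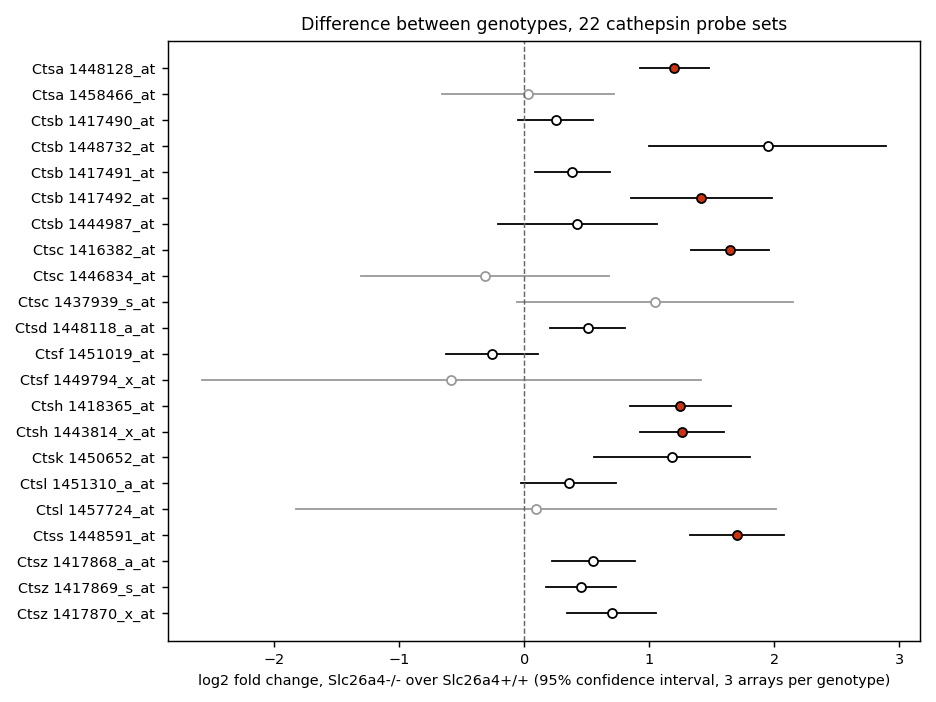
Log2 fold change of Slc26a4-/- over Slc26a4+/+ with its 95% confidence interval (3 arrays per genotype) for all 22 cathepsin probe sets. Filled points passed the threshold, grey lines mark probe sets that did not reach background on all 3 arrays of either genotype, and the 6 filled points all lie to the right of 0.

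The 5 probe sets of Ctsb disagreed. Ctsb encodes cathepsin B, an endopeptidase that also removes dipeptides from the C-terminus, and a main lysosomal peptidase of most cells. The brightest, 1417490_at, gave signals of 12694, 14050.5 and 14763 with Slc26a4+/+ tissue and 16522, 16597.5 and 16138.5 with Slc26a4-/- tissue (log2 fold change 0.25, 95% confidence interval -0.05 to 0.55, adjusted p = 0.528 from limma). Probe set 1448732_at gave 6044, 2245 and 1347 with Slc26a4+/+ tissue and 9731, 9907 and 10838 with Slc26a4-/- tissue (log2 fold change 1.95, SE 0.42, adjusted p = 0.0573 from limma). Its Slc26a4+/+ signals differed widely among themselves, and they were lowest on the arrays with the highest Gapdh 3′/5′ ratios. Slc26a4+/+ replicate 3 (ratio 10.5) was also the dimmest for the called Ctss 1448591_at, Ctsc 1416382_at, Ctsh 1418365_at and Ctsb 1417492_at. It was not the dimmest for the called Ctsa 1448128_at and Ctsh 1443814_x_at. Without Slc26a4+/+ replicate 3 the log2 fold changes were 1.54 for Ctss, 1.59 for Ctsc, 1.05 for Ctsh 1418365_at and 1.08 for Ctsb 1417492_at. Each still passed. The part of RNA quality in these calls was not tested. With Slc26a4+/+ replicate 1 left out, the log2 fold change of 1448732_at was 2.54 (adjusted p = 0.000807 from limma). It also passed with the replicate number as a block (adjusted p = 0.0292 from limma), with array weights (0.000487) and when only probe sets above background were tested (0.0406). With Slc26a4+/+ replicates 2 and 3 left out, its log2 fold change was 0.75 (adjusted p = 0.0166 from limma, with the lone Slc26a4+/+ array assumed to vary like the others).

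Probe set 1417492_at passed, at 1245, 1344 and 647 with Slc26a4+/+ tissue and 2471, 2828 and 2948 with Slc26a4-/- tissue (log2 fold change 1.42, SE 0.25, adjusted p = 0.0232 from limma). It was the call of the family nearest to the threshold, and it did not hold when any 1 Slc26a4-/- array was left out (adjusted p 0.0814 to 0.120) or with median centring (0.112). The log2 fold change was 0.38 for 1417491_at (adjusted p = 0.268 from limma), with signals of 2014 to 2342 in Slc26a4+/+ and 2677 to 3100.4 in Slc26a4-/-. Probe set 1444987_at overlapped between the genotypes, with 363 to 766 and 577 to 782. All 5 estimates for Ctsb were above 0, and their sizes ranged from 0.25 to 1.95 on the log2 scale. Where each probe set lies along the transcript is not given in the tables used here.

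**Figure D3:**
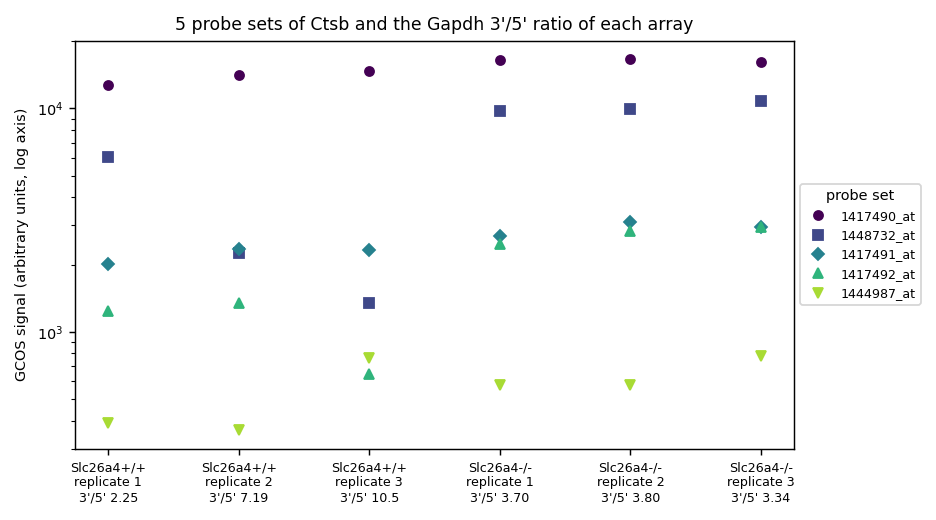
GCOS signal (arbitrary units, log axis) of the 5 probe sets of Ctsb on each array, with the Gapdh 3′/5′ ratio of the array under its name. Probe set 1448732_at lies at 6044 on Slc26a4+/+ replicate 1 and at 1347 on replicate 3, whereas 1417490_at stays within 12694 to 14763 on the same arrays.

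Ctsd, Ctsz, Ctsk and Ctsl kept the genotypes apart with their brightest probe sets, the Slc26a4-/- arrays being higher, but did not pass. Ctsd encodes cathepsin D, the aspartic endopeptidase of lysosomes. It gave signals of 8282, 9896 and 9605 with Slc26a4+/+ tissue and 13149, 13129 and 13087 with Slc26a4-/- tissue (log2 fold change 0.51, 95% confidence interval 0.21 to 0.81, adjusted p = 0.120 from limma). Ctsd passed with quantile normalization (adjusted p = 0.0101 from limma) and when only probe sets above background were tested (0.0371).

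Ctsz encodes cathepsin Z, also called X, a carboxypeptidase that takes off single residues. Its 3 probe sets had log2 fold changes of 0.55, 0.45 and 0.70 with adjusted p of 0.120, 0.133 and 0.0678 from limma. The brightest, 1417868_a_at, gave signals of 4591, 3585 and 3508 with Slc26a4+/+ tissue and 5851, 5898 and 5286 with Slc26a4-/- tissue. The 3 probe sets carry suffixes that mark probes able to match several transcripts. Their lowest Slc26a4-/- array stood above their highest Slc26a4+/+ array in each case. All 3 passed without Slc26a4+/+ replicate 1 (adjusted p 0.00886 to 0.0460 from limma) and with array weights (0.00158 to 0.0115), and 1417870_x_at also when only probe sets above background were tested (0.0461).

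Ctsk encodes cathepsin K, the collagen-degrading peptidase of osteoclasts, also made by some fibroblasts and macrophages. It gave signals of 233, 142 and 136 with Slc26a4+/+ tissue and 434, 339 and 356 with Slc26a4-/- tissue, so that it exceeded background on 1 Slc26a4+/+ array and on all 3 Slc26a4-/- arrays. The difference was 1.18 on the log2 scale (SE 0.28, 95% confidence interval 0.56 to 1.81, adjusted p = 0.0768 from limma), and against Slc26a4+/+ replicate 1 alone it was 0.69 (adjusted p = 0.200). Without Slc26a4+/+ replicate 1 Ctsk passed (log2 fold change 1.43, adjusted p = 0.0189 from limma).

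Among the brightest probe sets of the 10 genes, those of Ctsb, Ctsf and Ctsl gave the smallest differences. Ctsl encodes cathepsin L, a broad endopeptidase. Its signals were 7216.5, 6336 and 4703 with Slc26a4+/+ tissue and 7679, 7707 and 7579.6 with Slc26a4-/- tissue (log2 fold change 0.35, 95% confidence interval -0.02 to 0.73, adjusted p = 0.459 from limma). Ctsf, cathepsin F, was the one gene with a negative estimate, at 1402, 1401 and 1013 in Slc26a4+/+ and 1053, 1031 and 1068 in Slc26a4-/- (log2 fold change -0.26, 95% confidence interval -0.63 to 0.11, adjusted p = 0.602 from limma). These intervals leave room for a log2 fold change of Ctsl of up to 0.73 and a log2 fold change of Ctsf as low as -0.63. The remaining probe sets of Ctsl and Ctsf, 1457724_at and 1449794_x_at, were below background on all 6 arrays.

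Promoter sequences of the mouse reference (RefSeq, GRCm38.p6, 300 bases each, most of them upstream of a transcript start) were found for 8 of the 10 genes, but not for Ctsb and Ctsh. They were searched on both strands for CACGTG, the core that TFEB, TFE3 and MITF share, and for GAGGAAG, a core bound by PU.1, the myeloid factor encoded by Spi1. The reference is not the 129S6 strain. CACGTG was present in 4 of the 8 genes, Ctsa, Ctsd, Ctsf and Ctsl, and in 7.15% of all 32851 windows of this length. GAGGAAG was present in 3 of the 8, Ctsc, Ctsk and Ctss, and in 13.6% of all windows. No gene of the family held both. Of the genes with CACGTG, Ctsa passed and Ctsd, Ctsf and Ctsl did not. Of those with GAGGAAG, Ctsc and Ctss passed and Ctsk did not. A match in letters is not a binding site. The windows of the genes with GAGGAAG, and of Ctsa and Ctsd, which hold CACGTG at 2 positions each, are shown 5′ to 3′ on the strand of the gene, with the motif in capitals (GAGGAAG on the opposite strand reads CTTCCTC). They lie at chr3:95526536-95526835 (plus strand, Ctss), chr7:88277835-88278134 (plus, Ctsc), chr3:95498960-95499259 (plus, Ctsk), chr2:164833523-164833822 (plus, one of 2 starts of Ctsa) and chr7:142387778-142388077 (minus, Ctsd).
Ctss: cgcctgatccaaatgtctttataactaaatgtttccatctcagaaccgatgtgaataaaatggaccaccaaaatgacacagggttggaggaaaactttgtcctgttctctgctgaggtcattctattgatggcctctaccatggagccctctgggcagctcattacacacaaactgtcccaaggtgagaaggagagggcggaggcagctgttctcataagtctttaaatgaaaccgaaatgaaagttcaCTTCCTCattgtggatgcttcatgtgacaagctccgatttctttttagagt
Ctsc: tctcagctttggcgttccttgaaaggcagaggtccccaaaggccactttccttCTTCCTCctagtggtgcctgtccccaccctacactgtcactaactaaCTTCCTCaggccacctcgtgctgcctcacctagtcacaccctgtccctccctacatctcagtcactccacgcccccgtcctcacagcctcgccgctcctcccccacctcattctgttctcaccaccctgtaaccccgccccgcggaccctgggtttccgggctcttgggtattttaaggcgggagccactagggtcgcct
Ctsk: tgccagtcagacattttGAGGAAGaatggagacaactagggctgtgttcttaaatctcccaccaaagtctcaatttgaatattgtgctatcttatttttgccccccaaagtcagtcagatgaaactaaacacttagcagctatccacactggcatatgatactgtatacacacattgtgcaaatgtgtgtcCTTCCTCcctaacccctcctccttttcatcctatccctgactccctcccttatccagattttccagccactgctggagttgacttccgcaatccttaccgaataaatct
Ctsa: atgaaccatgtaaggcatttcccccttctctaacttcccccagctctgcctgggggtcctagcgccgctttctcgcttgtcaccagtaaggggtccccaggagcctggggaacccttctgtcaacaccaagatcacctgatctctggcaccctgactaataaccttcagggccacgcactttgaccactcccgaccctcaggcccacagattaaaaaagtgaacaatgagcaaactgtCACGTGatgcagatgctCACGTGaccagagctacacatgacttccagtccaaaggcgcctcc
Ctsd: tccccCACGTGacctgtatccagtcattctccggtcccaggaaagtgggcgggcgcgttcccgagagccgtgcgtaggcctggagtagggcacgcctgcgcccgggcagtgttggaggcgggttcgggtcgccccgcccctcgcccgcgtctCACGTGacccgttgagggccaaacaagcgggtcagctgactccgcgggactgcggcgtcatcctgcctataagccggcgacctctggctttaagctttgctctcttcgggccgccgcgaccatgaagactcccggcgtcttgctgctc

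The other genes of the pathway were followed in 6 lists of cathepsin relatives, inhibitors, other lysosomal peptidases, sorting proteins, partners and substrates, and transcription factors. Of 66 genes 62 were measured, 33 of them above background on all 3 arrays of a genotype. In Slc26a4-/- 6 rose, where 1.88% of all genes did, and 1 fell, where 0.803% did. Their median log2 fold change was 0.08. Of these 7 calls, only that of Cst6 held with each array left out in turn. Those of Ctse, Lgmn, Gga2, Lrp1 and Col1a2 were lost without Slc26a4+/+ replicate 2 (adjusted p 0.0798 to 0.162) or without any 1 Slc26a4-/- array (0.0932 to 0.279), and that of Ctla2a without Slc26a4+/+ replicate 3 (0.0572) or any 1 Slc26a4-/- array (0.0563 to 0.108).

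Among the 12 other cathepsin genes 1 rose. Ctse, an aspartic cathepsin, gave signals of 521.5, 556 and 476 with Slc26a4+/+ tissue and 886.5, 872 and 1022.5 with Slc26a4-/- tissue (log2 fold change 0.84, SE 0.16, adjusted p = 0.0307 from limma). Ctso had 0.42 (adjusted p = 0.351). The other 10 were below background on all 6 arrays. These included Ctsg and Ctsw, the cathepsins of neutrophil granules and of cytotoxic lymphocytes, and placental cathepsins such as Cts3 and Cts8.

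Of the 14 inhibitors measured 2 rose, 0 fell and 9 were below background on all 6 arrays. Cst6, the cystatin E/M that also blocks legumain, was below background on all 3 Slc26a4+/+ arrays, at 124 to 245, and had signals of 727, 949 and 868 in Slc26a4-/-. It rose at least 3.27-fold (adjusted p = 0.00276 from limma), a bound that sets the Slc26a4-/- mean against the background of the Slc26a4+/+ arrays. Ctla2a, which resembles the propeptide of cysteine cathepsins and inhibits them, rose from 356, 719 and 415 to 1135, 1764.5 and 1340.2 (log2 fold change 1.55, SE 0.27, adjusted p = 0.0202 from limma). Its near copy Ctla2b did not pass (adjusted p = 0.0864), and the signals cannot say how far the 2 genes share probes. Cst3, cystatin C, the main secreted inhibitor, gave signals of 5024, 5308 and 6354 with Slc26a4+/+ tissue and 8305, 8498 and 9154 with Slc26a4-/- tissue (log2 fold change 0.64, adjusted p = 0.0573 from limma). Cstb, the cystatin of the cytosol, overlapped between the genotypes, at 8849.9 to 13253 and 10798 to 11478.

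Among the other lysosomal peptidases 1 of 7 rose. Lgmn, legumain, the asparaginyl endopeptidase that also cuts cathepsin precursors, gave signals of 1515, 1023 and 562 with Slc26a4+/+ tissue and 2819, 2815 and 3237 with Slc26a4-/- tissue (log2 fold change 1.63, SE 0.30, adjusted p = 0.0253 from limma). As for Ctsb 1448732_at, the Slc26a4+/+ array with the highest Gapdh ratio was the dimmest. The log2 fold change of Lgmn was 0.96 with Slc26a4+/+ replicates 2 and 3 left out (adjusted p = 0.0155 from limma). Scpep1, a serine carboxypeptidase related to Ctsa, had 0.33 (adjusted p = 0.298), Cpq had 0.23 (adjusted p = 0.533) and Napsa was below background.

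The sorting proteins moved in both directions. Gga2, an adaptor that loads mannose 6-phosphate receptors into vesicles at the trans-Golgi, fell from 4196, 4158 and 3349 to 2353, 2385.5 and 2410.5 (log2 fold change -0.70, SE 0.14, adjusted p = 0.0356 from limma). It was the one gene of the pathway lists that fell. Lrp1, an endocytic receptor that takes up secreted Ctsd, rose from 1213, 1072 and 1202 to 1793, 1774 and 1904 (log2 fold change 0.65, SE 0.13, adjusted p = 0.0434 from limma). Igf2r, the large mannose 6-phosphate receptor, had 0.59 (adjusted p = 0.0643), and Gnptab, a subunit of the enzyme that makes the mannose 6-phosphate tag, had 0.50 (adjusted p = 0.520).

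Of the 13 partners and substrates 1 rose and 0 fell. Col1a2, a chain of type I collagen, rose from 336, 291 and 389 to 698, 674 and 699 (log2 fold change 1.04, SE 0.18, adjusted p = 0.0213 from limma). The other chain of that collagen, Col1a1, overlapped between the genotypes, at 426, 80.5 and 503 with Slc26a4+/+ tissue and 266, 94.1 and 203 with Slc26a4-/- tissue (log2 fold change -0.59, adjusted p = 0.794 from limma). Cd74, the invariant chain that Ctss cuts, gave signals of 346, 318 and 384 with Slc26a4+/+ tissue and 364, 720.2 and 659 with Slc26a4-/- tissue, which overlapped (log2 fold change 0.68, adjusted p = 0.340 from limma). Of the granule peptidases that Ctsc activates, Gzma, Gzmb, Elane and Prtn3 were below background on all 6 arrays, and Cma1 lay at 172.5 to 309 in Slc26a4+/+ and 176 to 238 in Slc26a4-/-. Grn and Psap, whose precursors lysosomal peptidases cut into granulins and saposins, had log2 fold changes of -0.11 and -0.06 (95% confidence intervals -0.54 to 0.32 and -0.35 to 0.23).

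None of the 6 transcription factors passed limma's adjusted threshold, and 2 were higher at an unadjusted p under 0.05, where 8.48% of all genes were. These were Irf8 and Spi1, factors of myeloid cells. Irf8 had a log2 fold change of 0.94 (adjusted p = 0.146 from limma). Spi1 exceeded background on 0 Slc26a4+/+ and 3 Slc26a4-/- arrays and was at least 1.07-fold higher in Slc26a4-/- (adjusted p = 0.275 from limma). Tfec was below background on all 6 arrays. Tfeb, a regulator of lysosomal genes, had -0.22 (95% confidence interval -0.73 to 0.30), and Mitf, the pigment cell factor of the same family, had -0.08 (-0.39 to 0.22).

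**Figure D4:**
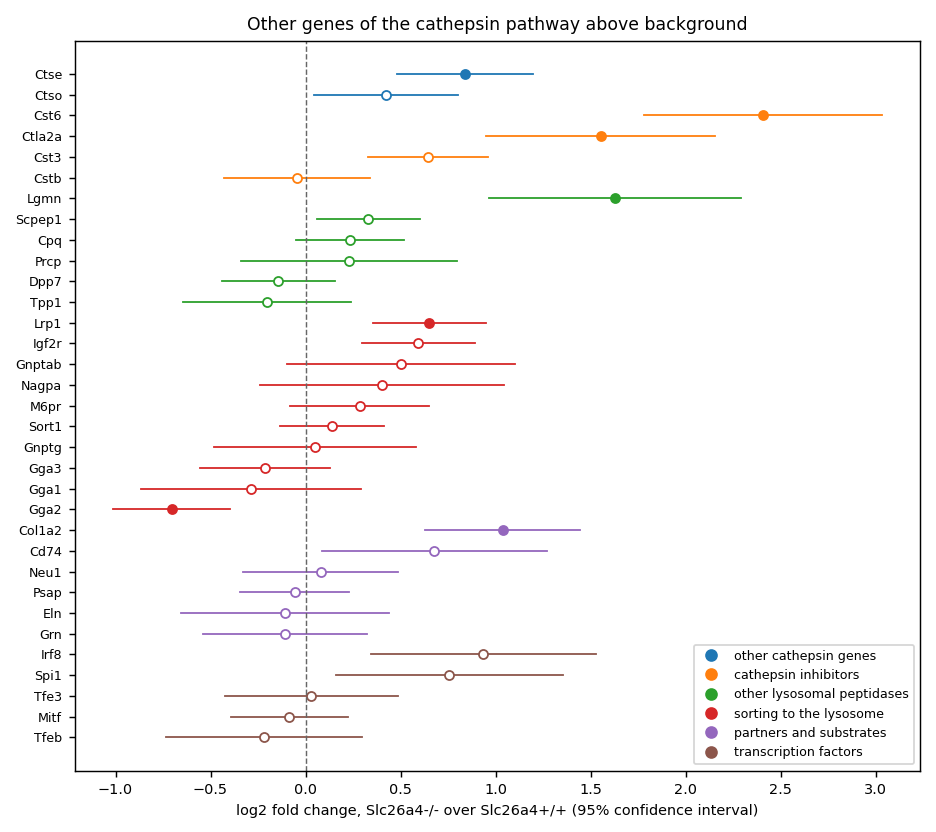
Log2 fold change of Slc26a4-/- over Slc26a4+/+ with its 95% confidence interval for the 33 other genes of the pathway above background on all 3 arrays of a genotype, coloured by list. Filled points passed the threshold, which were Ctse, Cst6, Ctla2a, Lgmn, Lrp1 and Col1a2 on the right and Gga2 on the left.

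Markers of some cell types were higher in Slc26a4-/- too, and those of others were not. Of 14 macrophage markers 12 rose, where 1.88% of all genes did, 0 fell and all had a positive estimate, with a median log2 fold change of 2.53. The study had listed several of these markers as higher on these same arrays, so their count is no independent result. Their summed signal was 6748 to 8995 on the Slc26a4+/+ arrays and 41696 to 43537 on the Slc26a4-/- arrays. Such a sum follows mainly the brightest probe sets of its list and does not measure the number of cells. Lyz2, lysozyme of macrophages, rose from 572, 482 and 495 to 10473, 9718 and 10180.0. Ptprc, the leukocyte antigen CD45, rose as well, lying at 194 to 284 in Slc26a4+/+ and at 919 to 1001 in Slc26a4-/-. Cd68, a lysosomal protein of macrophages, was below background in Slc26a4+/+ and rose at least 5.20-fold. Csf1r did not pass (2479.5, 3738 and 4170.0 against 5869.9, 6759 and 6440.1, adjusted p = 0.0501). The summed signal of the 10 cathepsin genes was 39435 to 42746 in Slc26a4+/+ and 62124 to 62804 in Slc26a4-/-. Its largest parts were Ctsb and Ctsd, whose brightest probe sets did not pass. Both lists kept the genotypes apart by these sums, and the part of macrophages in the cathepsin result was not tested.

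Of the 8 osteoclast markers 0 passed limma's adjusted threshold, and 2 were higher at an unadjusted p under 0.05, against 8.48% of all genes. Acp5, the tartrate-resistant phosphatase, was at 32.3 to 100.3 in Slc26a4+/+ and at 197 to 243 in Slc26a4-/-, Atp6v0d2 at 75.4 to 174 and 259.6 to 425, and Nfatc1 at 307 to 583 and 566 to 616. Tnfrsf11a and Dcstamp overlapped between the genotypes, with log2 fold changes of -0.32 and -0.09. Calcr, Ocstamp and Mmp9 were below background on all 6 arrays, and only 3 of the 8 markers exceeded it on all 3 arrays of a genotype. The summed signal of the 8 markers was 869.5 to 1464 in Slc26a4+/+ and 1532 to 1745 in Slc26a4-/-, and its part in the signal of Ctsk was not tested. Of the markers of osteoblasts Alpl, an alkaline phosphatase, was lower on each Slc26a4-/- array, at 713 to 1242 and 422.5 to 639, and did not pass (log2 fold change -0.74, adjusted p = 0.226 from limma), and Sp7 overlapped. The markers of neutrophils and mast cells, of T, NK and B cells and of blood gave 0 calls. S100a8, Mpo, Kit, Cd3e, Cd79a and Hba-a1 were below background on all 6 arrays. Cd8a was at 227 to 504 in Slc26a4+/+ and 371 to 410.3 in Slc26a4-/-, Ngp at 181 to 386 and 151 to 191, and Alas2, an enzyme of haem synthesis in red cells, at 271 to 669.5 and 125 to 248.

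Of 8 markers of spiral ligament fibrocytes, neighbours of stria vascularis, 4 rose, where 1.88% of all genes did, and 0 fell. Otos, otospiralin, rose from 518, 804 and 585 to 2583, 2769.8 and 1751, whereas Coch, cochlin, overlapped between the genotypes and Car3, a carbonic anhydrase, was at 11994 to 12837 and 15333 to 16190.0 without passing. The summed signal of the 8 markers was 17437 to 19362 in Slc26a4+/+ and 25352 to 28181 in Slc26a4-/-, and its part in the cathepsin result was not tested. Of the cells of stria vascularis itself, 2 of 7 marginal cell markers fell, where 0.803% of all genes did, and 0 rose. These were Kcne1 and Atp13a5, with log2 fold changes of -1.27 and -1.21 (adjusted p = 0.00237 and 0.00837 from limma). None of the 7 estimates was positive. The summed signals of the 7 markers were 52725 to 70041.5 in Slc26a4+/+ and 39329.9 to 41345 in Slc26a4-/-. Slc12a2, the cotransporter of marginal cells, gave 19124, 23553 and 28351 with Slc26a4+/+ tissue and 18081, 17031 and 17548 with Slc26a4-/- tissue, without overlap, and did not pass (log2 fold change -0.41, adjusted p = 0.365 from limma). Atp1b2, a subunit of their sodium pump, overlapped between the genotypes. For melanocyte-derived intermediate cells 2 of 7 markers rose, where 1.88% of all genes did, and 0 fell. Tyrp1 was below background in Slc26a4+/+, at 23.6 to 80.8, and at 1206 to 1707 in Slc26a4-/-. It rose at least 5.70-fold (adjusted p = 0.000276 from limma). Pmel was at 160 to 249 and 609 to 676 (log2 fold change 1.64, adjusted p = 0.00632 from limma). The signals of Dct and Kcnj10, a pigment enzyme and a potassium channel of these cells, overlapped. So did the summed signals, of which Dct and Kcnj10 were the largest parts. The part of these cells in the cathepsin result was not tested. Of the 3 basal cell markers 0 passed, with Gjb6 at 14152 to 16156 and 12549 to 13350 and Gjb2, the other connexin, overlapping.

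Of the 6 markers of endothelial cells and pericytes 0 passed, but their summed signal was 1782.5 to 2702 in Slc26a4+/+ and 3744 to 3943 in Slc26a4-/-, so that it kept the genotypes apart in the direction of the cathepsins, and its part in the cathepsin result was not tested. Kdr, a receptor of endothelial growth factor, gave 476, 764.5 and 631 with Slc26a4+/+ tissue and 1182, 964 and 981 with Slc26a4-/- tissue (log2 fold change 0.76, adjusted p = 0.114 from limma). Pdgfrb, a receptor of pericytes, was at 370 to 711 and 817 to 1214 (log2 fold change 0.76, adjusted p = 0.268 from limma). Of the 6 estimates 5 were positive, and that of Pecam1, below background on all 6 arrays, was -0.62.

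**Figure D5:**
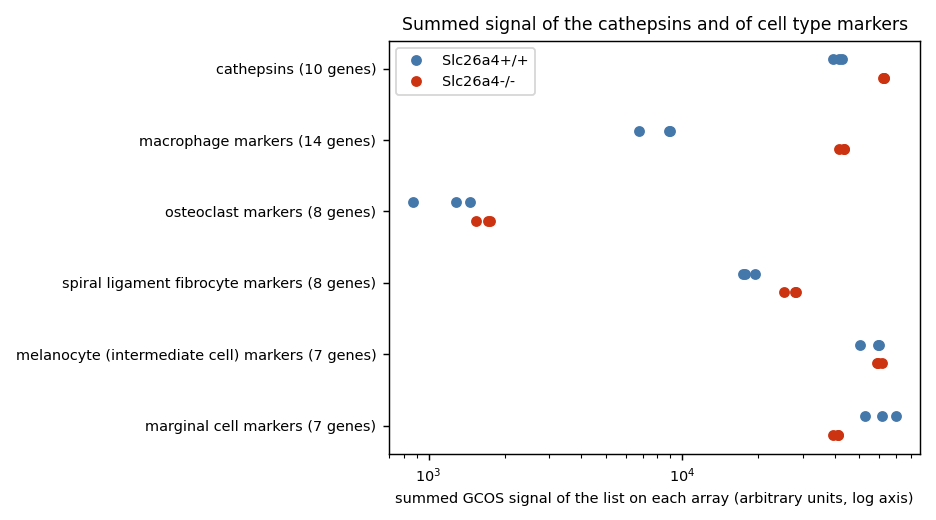
Summed GCOS signal (arbitrary units, log axis) of the 10 cathepsins and of marker lists of 5 cell types, with 1 point per array. Each sum follows mainly the brightest probe sets of its list. The genotypes lie apart for the cathepsins (39435 to 42746 against 62124 to 62804), for macrophages, osteoclasts and fibrocytes, and in the opposite direction for marginal cells.

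The profiles of the 3 cathepsins with the smallest p-values were set against those of the 8394 genes above background on all 6 arrays. Likeness was the root mean square difference of log2 signals, each centred on its own mean, over the 6 arrays, so that a gene with the same difference between the genotypes and the same spread comes first. The nearest to Ctsa was Pycard, the adaptor of the inflammasome (root mean square difference 0.0576). It was followed by Ucma (0.0730), one of the fibrocyte markers, and Capg (0.0872), an actin-capping protein of macrophages. The nearest to Ctss was Lbp, the lipopolysaccharide-binding protein (0.0996), followed by the amino acid transporters Slc43a2 (0.130) and Slc7a5 (0.143). The nearest to Ctsc was Cav1, caveolin (0.109), followed by Cpxm2 (0.125) and Fkbp7 (0.135). All 9 of these genes passed the threshold with log2 fold changes of 1.04 to 1.87, which follows from how they were chosen and is no separate result.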

How the data were processed

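Gene expression was measured on 6 Affymetrix arrays and the authors deposited their intensity, a linear signal for each probe set that GCOS had background-corrected and scaled. Its version is not given in the sources, and detection calls were not used. Arrays were grouped by their labels. Of 45101 probe sets 64 Affymetrix controls were left out. Probe sets were named from the platform annotation where it gave 1 symbol (34945 probe sets; 932 had several and 9160 none). Signals under 1 were set to 1 (172 values), and log2 signals were compared by limma 3.58.1 in R 4.3.3 (lmFit, eBayes with trend, two-sided), with Benjamini-Hochberg adjustment over 45037 probe sets and a threshold of 0.05. No further normalization was applied. The probe set with the brightest mean log2 signal represented a gene. Background was set from 44 olfactory receptor probe sets. The number of arrays limits the precision. The script was tested on simulated data, with changes added to probe sets of any brightness. It found 23% of log2 changes of 1 and 60% of log2 changes of 2, so that not passing does not show a lack of change.

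The cathepsins and all lists were chosen with earlier results of these data known. Named genes were all cathepsin probe sets, the 4 smallest p-values and up to 8 calls of each pathway list, the 2 brightest genes of each marker list with Ptprc, Cd68, Acp5 and Otos, the check genes Slc26a4, Xist and Eif2s3y, and the 3 nearest profiles of 3 cathepsins. Ctsg, Ctsw, Cstb, Neu1, Glb1, Gzma, Prtn3, Cma1, Col1a1, Grn, Psap, Mitf, Sort1, S100a8, Mpo, Cd3e, Calcr, Ocstamp, Mmp9, Tnfrsf11a, Dcstamp, Tyrp1, Pmel, Kcne1, Atp13a5 and Pecam1 lie outside this rule and were named after their values were seen. Promoters came from RefSeq (GRCm38.p6). Alternatives were other normalizations, pseudocounts, filters and moderation, array weights, the methods' t-test paired by replicate number, the ratio of mean signals against the study's limit of 1.3 (the study's Present calls were not applied), the Xist signal as a covariate and leaving out arrays. Leaving out Slc26a4+/+ replicates 2 and 3 together, and averaging the ratios over the probe sets of a gene, were chosen after seeing the data.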

Additional observations from a re-analysis of the deposited data

How the results depend on the processing

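The counts of higher cathepsin probe sets (6), cathepsin genes (4) and other pathway genes (6), with 1 lower pathway gene, where 535 of all probe sets were higher and 243 lower, depended on how the spread was estimated and on the arrays used. In that order, without the trend they were 1, 1 and 0 (0 lower; 93 and 21 of all probe sets), with array weights 13, 7 and 16 (2 lower; 2372 and 1712), by the methods' t-test 0, 0 and 0 (0 lower; 0 and 0) adjusted and 11, 7 and 11 (3 lower; 1782 and 2198) unadjusted, by the ratio of the brightest probe set, or of each probe set, 14 (1 lower), 7 and 21 (10 lower; 7279 and 12218), and with the Xist covariate 0, 0 and 0 (0 lower; 27 and 0). By the mean ratio of all probe sets of a gene, chosen after seeing the data, 8 cathepsin genes were higher and 1, Ctsf, lower, and 18 and 9 pathway genes. Testing probe sets above background gave 10 higher cathepsin probe sets (650 of 19009), and median centring gave 3 higher and 0 lower pathway genes (359 and 89 of all probe sets). Leaving out 1 array gave 4 to 11 cathepsin probe sets (11 without Slc26a4+/+ replicate 1), 3 to 6 cathepsin genes, and 1 to 8 higher and 0 to 1 lower pathway genes, with 1 or 2 higher and 0 lower without Slc26a4+/+ replicate 2 or any 1 Slc26a4-/- array; of all probe sets 165 to 1048 were then higher and 54 to 666 lower. Leaving out Slc26a4+/+ replicates 2 and 3, chosen after seeing the data, gave 8, 5 and 7 (887 of all probe sets). The causes were not tested.

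Estimates changed sign for 3 probe sets at or below background. Ctsf 1449794_x_at turned from -0.59 to 0.53 without Slc26a4+/+ replicate 2 (range -1.21 to 0.53 with 1 array left out) and to 0.39 without Slc26a4+/+ replicates 2 and 3. Ctsl 1457724_at turned from 0.09 to -0.73 with array weights, -1.91 with the Xist covariate, -0.62 without Slc26a4+/+ replicate 1 and -0.59 without Slc26a4-/- replicate 2 (range -0.62 to 0.68). Ctsa 1458466_at turned from 0.03 to -0.0043 with 75th percentile centring, -0.0099 with array weights, -0.22 with the Xist covariate, -0.18 without Slc26a4+/+ replicate 1 and -0.10 without Slc26a4-/- replicate 2 (range -0.18 to 0.19).

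Arrays of the same replicate number correlated in their deviations with r of 0.094, 0.027 and 0.029. These values were taken over all probe sets, many of them below background, and cannot say whether the numbers mark matched pools. With the replicate number as a block 7 cathepsin probe sets, 4 cathepsin genes and 4 other pathway genes were higher and 0, 0 and 1 lower (588 and 244 of all probe sets). Dim probe sets near background limit what 3 arrays per genotype can show.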

Other observations

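Sort1 encodes sortilin, a sorting receptor that can carry cathepsins to the lysosome without the mannose 6-phosphate tag, and its probe sets disagreed. The brighter, 1423362_at, gave signals of 3845, 3824 and 3559 with Slc26a4+/+ tissue and 4307, 4012.5 and 4050.4 with Slc26a4-/- tissue (log2 fold change 0.14, 95% confidence interval -0.14 to 0.42). The dimmer, 1423363_at, gave 267.5, 300.3 and 340 with Slc26a4+/+ tissue and 908, 794 and 871 with Slc26a4-/- tissue (log2 fold change 1.51, SE 0.18, adjusted p = 0.00280 from limma). Which transcripts each of them reads is not given in the tables used here.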
